A study of Mus musculus with 4 samples.

Results

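Chromatin accessibility around 9 genes that mark pericytes and vascular smooth muscle was examined in hearts of Carm1 mutant and wild-type mice. The genes were Pdgfrb, Rgs5, Kcnj8, Abcc9, Notch3, Myh11, Tagln, Cnn1 and Cspg4. A peak belonged to a gene when it overlapped the gene body or lay within 30 kb of either end, which gave 107 of the 87948 peaks in the table; 3 of them lay in the windows of both Kcnj8 and Abcc9. ATAC-seq uses a transposase that inserts adapters where DNA is reachable, and the read count over a region follows how open it is. The tissue was whole heart at postnatal day 14, with 2 libraries from Carm1 mutant hearts and 2 from wild-type hearts. Carm1 encodes an arginine methyltransferase that methylates histones and transcription factors. The labels did not give the Carm1 allele, the cell type in which it was altered, the strain, the sex or whether animals were pooled, and the hearts are called neonatal in the design text. Nothing in the labels says that replicates were separate animals, so p-values measure the spread between these libraries.

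Pericytes wrap capillaries and smooth muscle cells wrap arteries and arterioles, and together they are called mural cells. Endothelial cells recruit them with platelet-derived growth factor B, which binds the receptor encoded by Pdgfrb, and drive their differentiation through Notch ligands that bind the receptor encoded by Notch3. Smooth muscle then switches on contractile genes such as Myh11, Tagln and Cnn1 under serum response factor and its coactivator myocardin. Mural cells of the heart also carry an ATP-sensitive potassium (KATP) channel, whose pore is encoded by Kcnj8 and whose regulatory subunit is encoded by Abcc9, a gene that cardiomyocytes use as well.

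The RefSeq promoter table (GRCm38.p6, the assembly of mm10) held a 300-base window, 250 bases before to 50 after the start, for 6 of the 9 genes, and none was used for Pdgfrb, Myh11 and Tagln. The windows of Cspg4, Abcc9 and Kcnj8 are shown because most of the called peaks lay at the first 2 genes and the third is the channel partner of Abcc9. They are written 5′ to 3′ on the gene's strand, with capitals marking matches to the motifs searched. The Cspg4 window is chr9:56864854-56865153 on the plus strand, that of Abcc9 is chr6:142702225-142702524 on the minus strand, and that of Kcnj8 is chr6:142571565-142571864 on the minus strand.
Cspg4: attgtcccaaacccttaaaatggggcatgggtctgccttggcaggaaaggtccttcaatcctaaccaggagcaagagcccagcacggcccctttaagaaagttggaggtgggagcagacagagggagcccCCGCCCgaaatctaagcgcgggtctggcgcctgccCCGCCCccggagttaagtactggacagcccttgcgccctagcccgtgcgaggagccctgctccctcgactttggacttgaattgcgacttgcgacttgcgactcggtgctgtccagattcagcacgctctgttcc
Abcc9: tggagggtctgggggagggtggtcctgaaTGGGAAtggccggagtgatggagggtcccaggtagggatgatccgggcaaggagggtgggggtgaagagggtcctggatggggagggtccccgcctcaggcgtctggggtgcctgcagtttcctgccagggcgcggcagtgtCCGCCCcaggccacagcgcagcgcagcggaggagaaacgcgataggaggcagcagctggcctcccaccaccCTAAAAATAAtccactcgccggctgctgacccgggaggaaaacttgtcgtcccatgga
Kcnj8: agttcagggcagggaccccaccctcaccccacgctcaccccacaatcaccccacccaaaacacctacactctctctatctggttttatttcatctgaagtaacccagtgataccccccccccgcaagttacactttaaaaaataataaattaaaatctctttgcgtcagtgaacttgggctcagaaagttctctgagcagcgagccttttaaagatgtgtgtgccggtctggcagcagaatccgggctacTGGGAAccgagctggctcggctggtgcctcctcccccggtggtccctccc
The Cspg4 and Abcc9 windows lay wholly inside 1 peak each, and the Kcnj8 window lay partly inside its start peak. Motifs were searched on both strands after the sequences had been seen. They were the CArG box bound by serum response factor, the MEF2 site bound by muscle MEF2 factors, TGGGAA bound by the Notch effector RBPJ, TATAAA and the GC box GGGCGG. A MEF2 match stood in the Abcc9 window at position -8 from the start, and 3.2% of the 32851 promoter windows in the table hold one. TGGGAA matched 1 time each in the Abcc9 and Kcnj8 windows, against 25.6% of all windows with a match. The GC box matched 2 times in the Cspg4 window, 1 time in that of Abcc9 and 4 times in that of Notch3, and 35.7% of all windows hold at least 1. No CArG box matched in any of the 6 windows, and 1.6% of all windows hold one. These are letter matches in short windows and show no binding.

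The libraries held 16740589 and 15945420 reads in peaks in the mutant and 17508230 and 19091969 in the wild type. The 107 mural peaks took 0.0920% and 0.0979% of these reads in mutant replicates 1 and 2, and 0.0890% and 0.0921% in wild-type replicates 1 and 2. All 11 cardiomyocyte, 10 endothelial, 8 fibroblast, 7 leukocyte and 4 Schwann marker genes listed for comparison had at least 1 peak within the same window, so none was at 0. Libraries of 1 genotype differed in these lists. Peaks near cardiomyocyte markers summed to 6959 and 6064 CPM (read counts scaled to a common library size) in mutant replicates 1 and 2, and to 5977 and 5507 CPM in wild-type replicates 1 and 2. Peaks near endothelial markers summed to 1601 and 1569 CPM in the mutant, against 1954 and 1569 CPM in the wild type, where replicate 1 stood above the other 3 libraries. Peaks near fibroblast markers summed to 453.1 and 525.0 CPM in the mutant and 437.4 and 468.9 CPM in the wild type, with replicate 2 the higher of each pair. Mural peaks followed that last order within each genotype, at 936.7 and 985.2 CPM in the mutant and 881.2 and 907.8 CPM in the wild type. Most of the gap between the genotypes in the mural sum lay in the Cspg4 window, described below. The part of cell composition in the results below was not tested, and in whole tissue fewer cells of a type and less open chromatin per cell cannot be told apart.

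**Figure D1:**
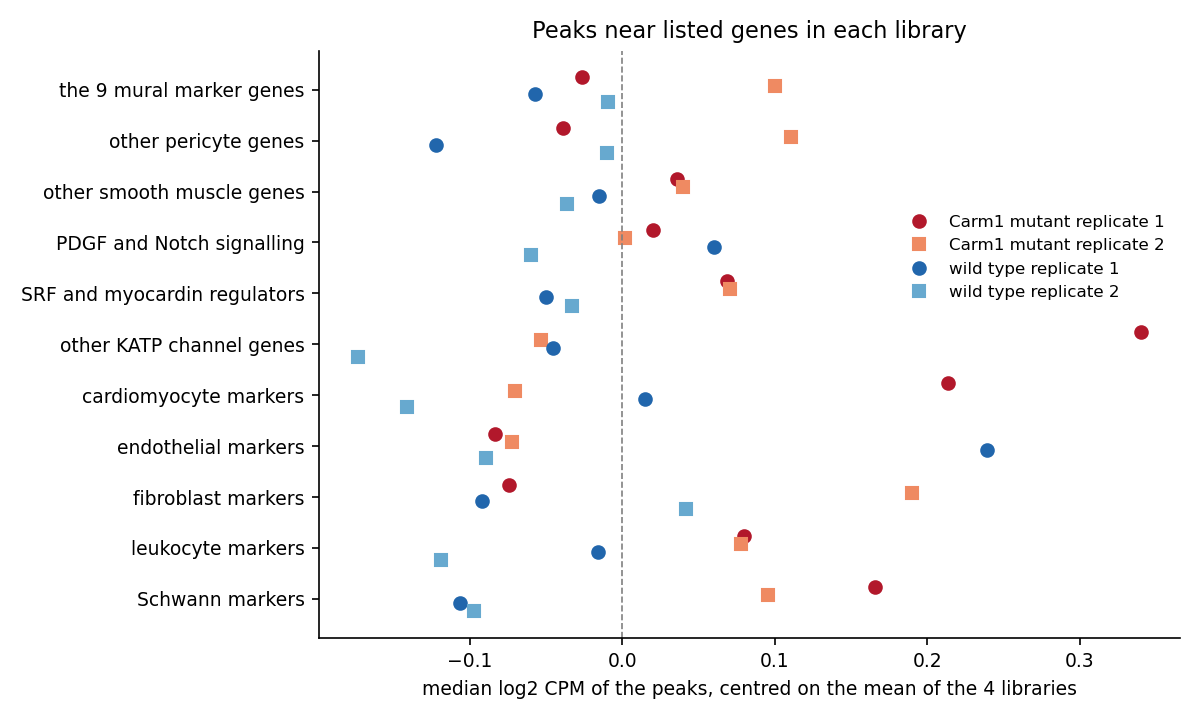
Median accessibility of the peaks near each gene list (rows) in each library, as log2 CPM centred on the mean of the 4 libraries (horizontal axis). For the 9 mural marker genes mutant replicate 2 lay highest, at 0.10, while the cardiomyocyte list was highest in mutant replicate 1 and the endothelial list in wild-type replicate 1.

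Few peaks around the mural genes were called, and Cspg4 was the only gene whose window was called as a sum. Of the 107 peaks, 5 were higher in the mutant, 0 were lower and 102 did not pass the threshold (edgeR quasi-likelihood test fitted on all peaks, Benjamini-Hochberg adjusted p under 0.05). The 5 lay at Abcc9 (2), Cspg4 (2) and Myh11 (1). Of all peaks 5.50% were called, 3.05% higher and 2.45% lower, so the 4.67% of mural peaks called stood near the background. The lower calls numbered 0, with 21 mural peaks of either direction (19.6%) under an unadjusted p of 0.05 by edgeR, against 21.8% of all peaks, and DESeq2 and limma voom called 0 lower as well. The median log2 fold change of mutant over wild type was 0.05 over the mural peaks, against -0.0007 over all peaks. Both mutant libraries lay above both wild-type libraries in 38 mural peaks (35.5%), against 25.8% of all peaks. The mutant libraries lay below in 13 mural peaks (12.1%), against 25.7% of all peaks. Of those 38 peaks 18 lay in the Cspg4 window, and over the 83 peaks outside it the shares were 24.1% above and 13.3% below, with a median log2 fold change of -0.02. DESeq2 called 3 of the 5 peaks. Without wild-type replicate 1 the edgeR fit called 1 higher peak, without wild-type replicate 2 it called 2 and without mutant replicate 1 it called 8.

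**Figure D2:**
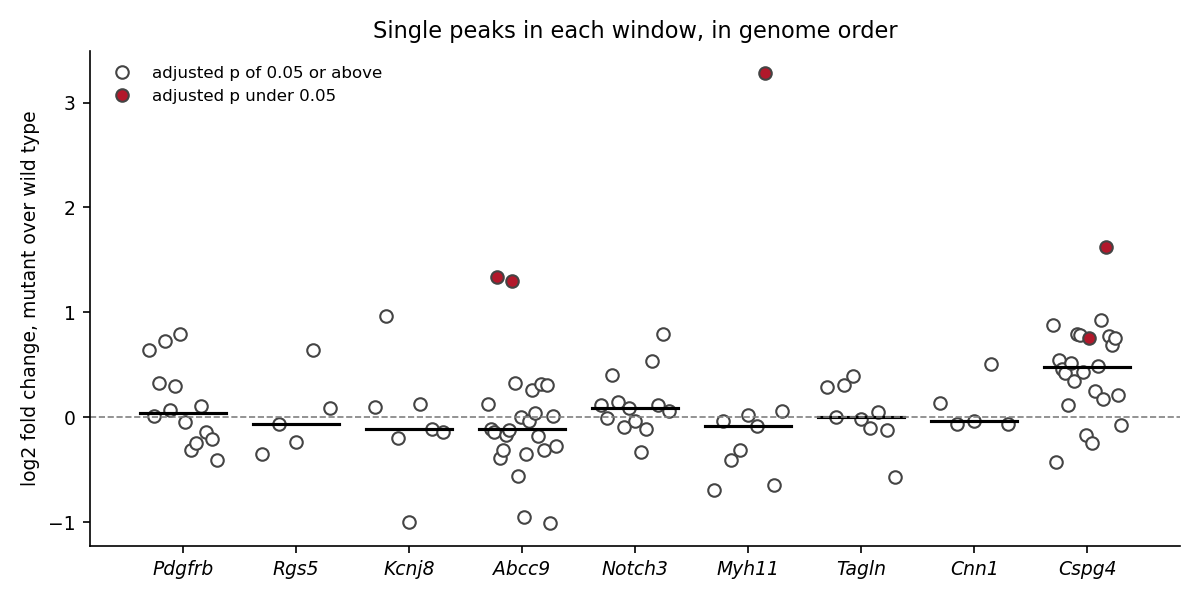
Log2 fold change of mutant over wild type (vertical axis) for each peak in the window of each gene (horizontal axis), in genome order, with a bar at the gene's median. The 5 filled points are the called peaks, and at Cspg4 20 of 24 peaks lie above 0 with a median of 0.48.

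Counts were also summed over all peaks of a window, for every gene with a peak, and tested over 17457 genes. Of the 9 mural loci 1 was higher in the mutant and 8 were not called, where 2.54% of all genes were called higher, 0.894% lower and 3.44% in either direction. The locus called was Cspg4. The other 8 had log2 fold changes between -0.06 and 0.08 with edgeR adjusted p from 0.719 to 0.981, and at each their mutant and wild-type libraries overlapped. Both mutant libraries lay above both wild-type libraries at 1 of the 9 loci and below at 0, against 30.7% above and 18.5% below over all genes.

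**Figure D3:**
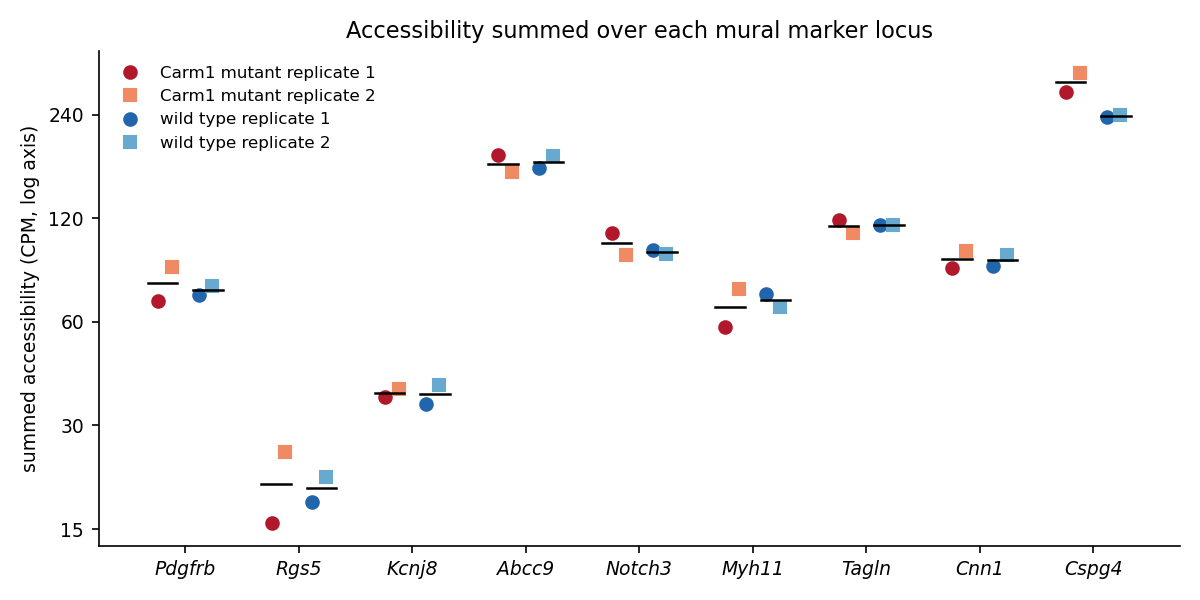
Summed accessibility of each mural locus (CPM on a log axis) in the 2 mutant and 2 wild-type libraries, with a bar at each genotype's mean. The libraries of the 2 genotypes overlap at 8 loci, and at Cspg4 the mutant libraries, at 280 and 317 CPM, stand above the wild-type libraries, at 236 and 240 CPM.

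Cspg4 encodes NG2, a chondroitin sulfate proteoglycan on the surface of pericytes and smooth muscle cells that is also found on glial progenitors. Its window held 24 peaks, 10 of them overlapping the gene (chr9:56865104-56899870). The sum was 280 and 317 CPM in mutant replicates 1 and 2, against 236 and 240 CPM in wild-type replicates 1 and 2. Both mutant libraries stood above both wild-type libraries, and replicate 2 was the higher of the mutant pair. The log2 fold change was 0.33 (SE 0.08, adjusted p = 0.0372 by edgeR, n = 2 each), beside a median of 0.03 over all loci. The call was lost without mutant replicate 2 (log2 fold change 0.23, edgeR adjusted p = 0.0673), wild-type replicate 1 (0.32, adjusted p = 0.251) or wild-type replicate 2 (0.34, adjusted p = 0.266), and with scaling by total counts (0.29, adjusted p = 0.0660). It held without mutant replicate 1, where the log2 fold change was 0.41. The peaks of 4 Schwann cell marker genes, which are glial, summed to 343.5 and 327.6 CPM in the mutant, against 290.7 and 289.8 CPM in the wild type. Of these 27 peaks 3 were higher (11.1%) and 0 lower, against 3.05% higher and 2.45% lower over all peaks. Most of the difference in the sum lay at Sox10, with 166 and 156 CPM in the mutant and 128 and 127 CPM in the wild type, the only 1 of the 4 loci called. Both called Sox10 peaks lay outside the gene, 18149 and 19344 bp away. The part of glial or other cells in the Cspg4 result was not tested.

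The Cspg4 peak with the smallest p was a wide one in the gene, 5557 bp from the start (chr9:56870661-56873515). This peak had 35.3 and 43.5 CPM in the mutant, against 22.5 and 23.9 CPM in the wild type. The mutant mean of 39.4 ± 5.80 CPM compared with 23.2 ± 1.01 CPM in the wild type (SD, n = 2 each), and the edgeR estimate was 0.76 (SE 0.16, adjusted p = 0.0102). Leaving out wild-type replicate 1 (adjusted p = 0.115 by edgeR) or wild-type replicate 2 (0.0917) ended the call, at log2 fold changes of 0.72 and 0.81. A second called peak lay 7673 bp beyond the gene (chr9:56907543-56907907), in the direction of Snx33 and Imp3, which encode a sorting nexin and a ribosomal RNA processing protein. It had 2.37 and 9.78 CPM in the mutant, against 1.81 and 2.12 CPM in the wild type, so that the difference stood mainly in mutant replicate 2. Its log2 fold change was 1.62 (SE 0.45, adjusted p = 0.0392 by edgeR), and it was 0.27 (adjusted p = 0.770) without mutant replicate 2 and 2.31 without mutant replicate 1. The call was also lost without wild-type replicate 1 (0.110), without wild-type replicate 2 (0.0820), with DESeq2 (0.428) and with limma voom (0.149).

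The other 22 Cspg4 peaks summed to 242 and 264 CPM in the mutant and to 211 and 214 CPM in the wild type, so the mutant libraries were also above the wild type outside the called peaks. The peak over the Cspg4 start, which covers the promoter printed above (chr9:56864551-56866033), had 23.3 and 20.2 CPM in the mutant and 18.4 and 15.7 CPM in the wild type. The groups did not overlap, but its log2 fold change of 0.35 did not pass the threshold (SE 0.18, adjusted p = 0.278 by edgeR). The strongest peak of the window (chr9:56926515-56928975) overlapped Snx33 and had a log2 fold change of -0.07 (SE 0.15, adjusted p = 0.836 by edgeR). The wide called peak overlaps Cspg4, and Odf3l1 is within 30 kb of it as well. The 30 kb rule therefore does not give that peak to Cspg4 alone, and which gene it serves was not tested.

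**Figure D4:**
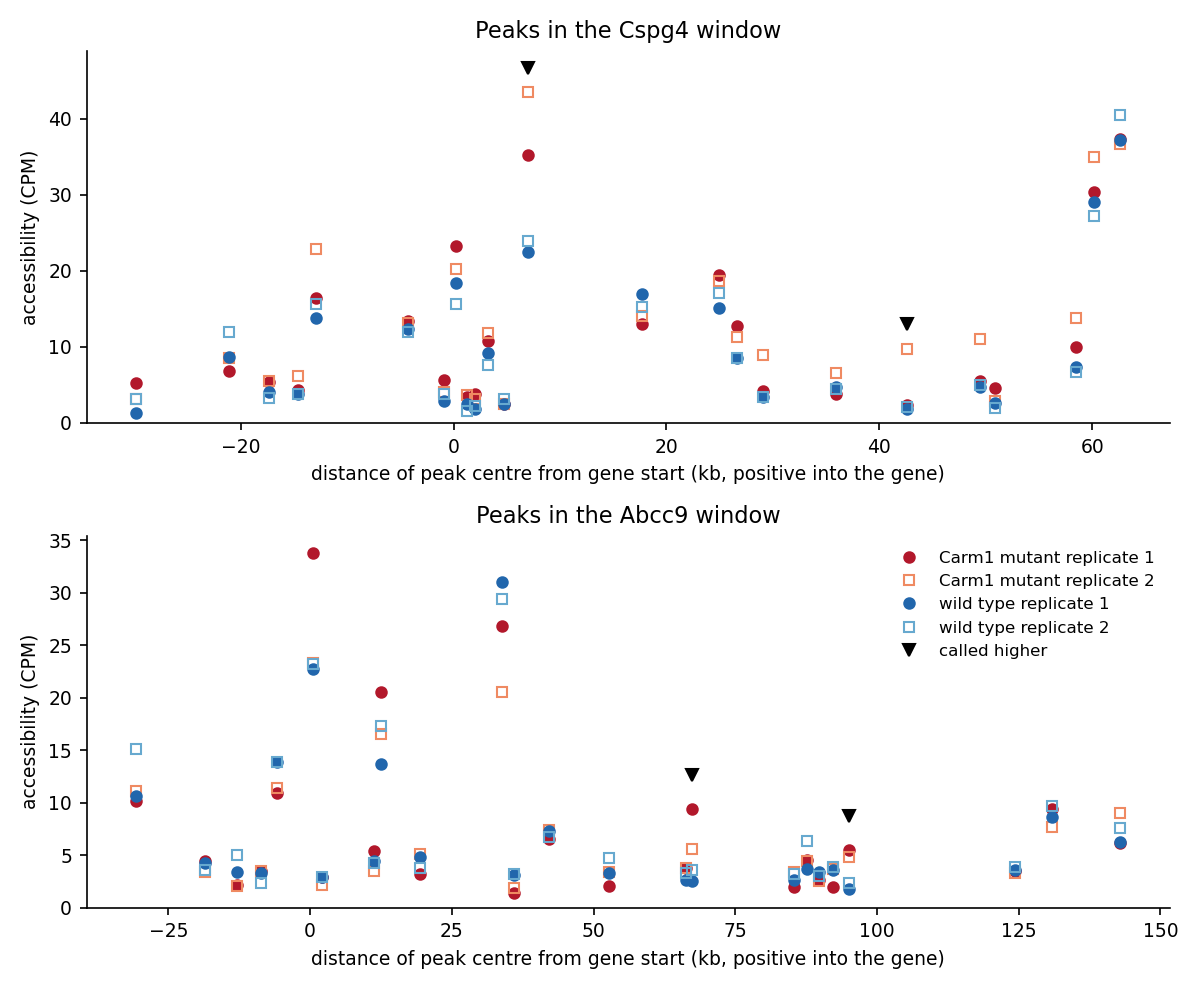
Accessibility (CPM) of every peak in the Cspg4 and Abcc9 windows in each library, against the distance of the peak's centre from the gene start, with triangles over the called peaks. Circles are replicate 1 and open squares replicate 2. The wide Cspg4 peak reaches 35.3 and 43.5 CPM in the mutant, against 22.5 and 23.9 CPM in the wild type. The called Abcc9 peaks lie far inside the gene and are much weaker than its strongest peak.

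Neither KATP channel gene was called as a sum, while 2 single peaks inside Abcc9 were higher in the mutant. Abcc9, whose product SUR2 senses nucleotides for the channel, summed to 183 and 164 CPM in the mutant and to 168 and 182 CPM in the wild type over 24 peaks. Its log2 fold change was -0.01 (SE 0.09, adjusted p = 0.955 by edgeR), and an interval of 2 SE ran from -0.19 to 0.16. Kcnj8, which encodes the pore protein Kir6.1, summed to 36.4 and 38.2 CPM in the mutant and to 34.7 and 39.3 CPM in the wild type over 7 peaks. Its interval ran from -0.25 to 0.27 around a log2 fold change of 0.01.

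Both called peaks of Abcc9 (chr6:142587862-142702766) were much weaker than its strongest peak, which had a mean of 26.9 CPM. Their means were 5.29 and 3.62 CPM, beside a median of 4.79 CPM over the mural peaks. The first (chr6:142634668-142635136), 67138 bp from the start, had 9.43 and 5.62 CPM in the mutant, against 2.55 and 3.56 CPM in the wild type. Its log2 fold change was 1.30 (SE 0.31, adjusted p = 0.0199 by edgeR), and the call was lost without mutant replicate 1 (0.87, adjusted p = 0.129) or wild-type replicate 1 (1.08, adjusted p = 0.142). The second (chr6:142607077-142607420), 94854 bp from the start, had 5.54 and 4.86 CPM in the mutant and 1.75 and 2.32 CPM in the wild type. The groups stood well apart, with a log2 fold change of 1.34 (SE 0.33, adjusted p = 0.0210 by edgeR). DESeq2 (0.0525) and the fits without wild-type replicate 1 (0.155) or replicate 2 (0.0700) did not call it.

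The 2 strongest peaks of Abcc9 did not pass the threshold and leaned in opposite directions. The peak over the start (chr6:142700590-142702969), which holds the MEF2 match, had 33.8 and 23.3 CPM in the mutant and 22.7 and 23.2 CPM in the wild type. Only mutant replicate 1 stood apart there, with a log2 fold change of 0.32 (SE 0.18, adjusted p = 0.331 by edgeR) that came to 0.56 (adjusted p = 0.0213) when mutant replicate 2 was dropped and 0.02 when mutant replicate 1 was. An internal peak (chr6:142667865-142669089) had 26.8 and 20.5 CPM in the mutant and 31.0 and 29.4 CPM in the wild type, lower in both mutant libraries, with a log2 fold change of -0.35 (SE 0.17, adjusted p = 0.237 by edgeR). It passed without mutant replicate 1 (-0.56, adjusted p = 0.0324). The Abcc9 window also held the lowest log2 fold change of all mural peaks, -1.01 (SE 0.35, adjusted p = 0.0907 by edgeR), in a weak peak beyond the start (chr6:142715043-142715410) with 2.13 and 2.08 CPM in the mutant and 3.45 and 5.01 CPM in the wild type.

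Weak peaks of Kcnj8 stood apart in either direction, and none was called. A peak 24318 bp from its body (chr6:142539965-142540519) had 4.2 and 4.04 CPM in the mutant and 2.09 and 2.12 CPM in the wild type, with little spread within either genotype (log2 fold change 0.97 ± 0.34 SE, adjusted p = 0.0942 by edgeR). A neighbour (chr6:142551444-142551845) went the other way, at 1.64 and 2.15 CPM in the mutant and 3.62 and 3.97 CPM in the wild type (log2 fold change -1.0 ± 0.35 SE, adjusted p = 0.0977 by edgeR). The peak over the Kcnj8 start (chr6:142571032-142571720) had 9.37 and 7.70 CPM in the mutant and 8.66 and 9.70 CPM in the wild type, and the genotypes overlapped (log2 fold change -0.11 ± 0.24 SE, adjusted p = 0.845 by edgeR).

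The receptor genes had 0 called peaks. Pdgfrb, which encodes the receptor for platelet-derived growth factor B, summed to 68.9 and 86.9 CPM in the mutant and 71.7 and 76.5 CPM in the wild type over 14 peaks, with a log2 fold change of 0.07 and an interval of 2 SE from -0.16 to 0.30. The spread of the mutant pair enclosed both wild-type libraries. Its strongest peak, over the lower-coordinate gene end (chr18:61044780-61045806), had 7.97 and 10.3 CPM in the mutant and 8.60 and 8.82 CPM in the wild type (log2 fold change 0.07 ± 0.24 SE, adjusted p = 0.909 by edgeR). The Pdgfrb peak with the smallest p, 859 bp outside that end, had 4.2 and 3.66 CPM in the mutant and 1.87 and 2.84 CPM in the wild type, with edgeR adjusted p = 0.219. Of the 14 peaks, 1 lay within 30 kb of Csf1r, a receptor gene of macrophages.

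Notch3, which encodes the Notch receptor of mural cells, summed to 109 and 93.8 CPM in the mutant and 97.1 and 94.7 CPM in the wild type over 13 peaks (log2 fold change 0.08, interval -0.11 to 0.28). It had no peak within 1 kb of its start. The nearest one, 1115 bp inside (chr17:32165211-32165775), was also its peak with the smallest p, at 5.29 and 5.81 CPM in the mutant and 3.85 and 2.58 CPM in the wild type (log2 fold change 0.79 ± 0.31 SE, adjusted p = 0.134 by edgeR). The strongest Notch3 peak lay far from the start, near the other gene end (chr17:32121652-32123093), and the genotypes overlapped at 29.5 and 21.6 CPM in the mutant and 27.0 and 28.2 CPM in the wild type. Rgs5, which encodes a regulator of G protein signalling that is typical of pericytes, had the lowest sum of the 9 genes. It had 15.6 and 25.1 CPM in the mutant and 18 and 21.3 CPM in the wild type over 5 peaks, replicate 2 being the higher in both genotypes. Its interval, -0.36 to 0.46 around a log2 fold change of 0.05, was the widest of the 9. The Rgs5 start peak (chr1:169655217-169655604) was weak, at 1.89 and 4.04 CPM in the mutant and 2.66 and 3.51 CPM in the wild type.

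Among the contractile genes, Tagln and Cnn1 had 0 called peaks and Myh11 had 1. Tagln, which encodes the actin-binding protein transgelin, summed to 119 and 109 CPM in the mutant and 115 and 115 CPM in the wild type over 9 peaks (log2 fold change -0.01, interval -0.18 to 0.17). No peak overlapped the Tagln body. The peak 910 bp outside its higher-coordinate end (chr9:45936968-45937299) had 9.91 and 9.78 CPM in the mutant and 6.11 and 8.93 CPM in the wild type (log2 fold change 0.39 ± 0.25 SE, adjusted p = 0.386 by edgeR), and it lay 558 bp from the neighbouring gene Sidt2. The strongest peak of the window (chr9:45953037-45955458) overlapped Sidt2. Cnn1, which encodes calponin, an actin-binding protein of smooth muscle, summed to 85.8 and 96.5 CPM in the mutant and 87.3 and 93.9 CPM in the wild type over 5 peaks (log2 fold change 0.01, interval -0.19 to 0.21). No peak overlapped the Cnn1 body. The strongest of the 5 overlapped Zfp653 and Ecsit, and the next strongest overlapped Ecsit (chr9:22084900-22085744) and Elof1 (chr9:22116829-22117551). The sum therefore mostly follows peaks at neighbouring genes. The Cnn1 peak nearest to the gene, 2799 bp away (chr9:22095910-22096422), had 8.64 and 12.4 CPM in the mutant and 6.17 and 8.52 CPM in the wild type, with a log2 fold change of 0.51 that was not called (SE 0.26, adjusted p = 0.248 by edgeR).

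Myh11, which encodes smooth muscle myosin heavy chain, summed to 58.0 and 74.6 CPM in the mutant and 72.5 and 66.2 CPM in the wild type over 9 peaks (log2 fold change -0.06, interval -0.31 to 0.18). Over the gene body only, the log2 fold change was -0.25 (adjusted p = 0.428 by edgeR). The strongest peak of the sum (chr16:14316746-14317662) lay beyond the gene and overlapped the centrosome gene Cep20. It had 27.0 and 36.2 CPM in the mutant and 31.9 and 28.7 CPM in the wild type. The called Myh11 peak lay 11549 bp beyond the gene, also inside Cep20 (chr16:14303737-14303961). It was among the weakest mural peaks, with 21 and 82 reads in mutant replicates 1 and 2 and 7 and 5 reads in wild-type replicates 1 and 2. These counts corresponded to 1.28 and 5.17 CPM in the mutant and 0.396 and 0.258 CPM in the wild type, so that mutant replicate 2 held most of the signal. The log2 fold change was 3.28 (SE 0.61, adjusted p = 0.00466 by edgeR). Leaving out mutant replicate 2 gave 1.95 and leaving out mutant replicate 1 gave 3.97, and this was the only 1 of the 5 mural calls that passed whichever library was left out. The Myh11 peak near its higher-coordinate end (chr16:14291168-14291789) had 8.52 and 9.72 CPM in the mutant and 9.56 and 9.70 CPM in the wild type (log2 fold change -0.08 ± 0.23 SE, adjusted p = 0.883 by edgeR).

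Levels at the gene starts were set on a scale of CPM per kb of peak, using the strongest peak within 1 kb of the start or, where the start was not given, of either end. The peak used for Tagln stood highest, at 29.9 and 29.5 CPM per kb in the mutant and 18.4 and 26.9 in the wild type. That peak lay 910 bp outside the gene and nearer to Sidt2. It was 332 bp wide, against 2380 bp for Abcc9 and 1483 bp for Cspg4, so the order depends in part on dividing by width. Myh11 had 13.7 and 15.6 CPM per kb in the mutant and 15.4 and 15.6 in the wild type. Cspg4 had 15.7 and 13.6 CPM per kb in the mutant and 12.4 and 10.6 in the wild type. Kcnj8 had 13.6 and 11.2 CPM per kb in the mutant, against 12.6 and 14.1 in the wild type, and Abcc9 had 14.2 and 9.78 in the mutant, against 9.56 and 9.74 in the wild type. Pdgfrb, at 7.76 and 10 CPM per kb in the mutant and 8.37 and 8.59 in the wild type, and Rgs5, at 4.86 and 10.4 in the mutant and 6.85 and 9.04 in the wild type, were lowest. On this scale the peak used for Tagln lay above those of the other genes in every library. Myh11, Cspg4, Kcnj8 and Abcc9 overlapped each other over the 4 libraries, as did Pdgfrb, Rgs5 and the lowest libraries of Abcc9. Mural peaks were about as wide as others, with a median of 540 bp against 533 bp over all peaks, and somewhat weaker, with a median of 4.79 CPM against 5.54 CPM.

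Further genes of mural cells gave few calls in either direction. Of 108 peaks near 12 other pericyte genes, 2 were higher (1.85%) and 1 was lower (0.926%) in the mutant, with a median log2 fold change of 0.09. The 2 lay outside the genes, 25110 bp from Ndufa4l2 and 18825 bp from Higd1b, both known as transcripts of pericytes. Inside Art3, which encodes an ADP-ribosyltransferase family protein, the lower peak (chr5:92359076-92359446) had 2.92 and 2.33 CPM in the mutant and 5.83 and 7.69 CPM in the wild type (log2 fold change -1.36 ± 0.30 SE, adjusted p = 0.0132 by edgeR). Of 198 peaks near 13 other smooth muscle genes, of which Des and Pln are also cardiomyocyte genes, 3 were higher (1.52%) and 2 lower (1.01%), with a median of 0.08. A peak inside Synpo2, which encodes an actin-bundling protein (chr3:123122555-123123011), had 6.45 and 10 CPM in the mutant and 3.51 and 2.48 CPM in the wild type (log2 fold change 1.46 ± 0.30 SE, adjusted p = 0.00886 by edgeR). The sum over the 31 Synpo2 peaks leaned the other way, at 293 and 266 CPM in the mutant and 298 and 314 CPM in the wild type (log2 fold change -0.13 ± 0.08 SE, adjusted p = 0.403 by edgeR). Mylk, the gene of myosin light chain kinase, carried 1 higher and both lower peaks. None of the 12 pericyte or 13 smooth muscle loci was called as a sum. Acta2, which encodes smooth muscle alpha-actin, summed to 62.2 and 70.9 CPM in the mutant and 57.0 and 61.8 CPM in the wild type (log2 fold change 0.16 ± 0.11 SE, adjusted p = 0.478 by edgeR).

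Of 163 peaks near 13 genes of PDGF and Notch signalling, 7 were higher (4.29%) and 1 was lower (0.613%) in the mutant, with a median log2 fold change of -0.03. Over all peaks 3.05% were higher and 2.45% lower, so the share of higher peaks in the list stood near that of the table. All 7 higher peaks lay in the windows of the ligand genes Pdgfa (4) and Pdgfb (3), and this grouping was noticed after the values were seen. Several were outside the gene bodies, at 4395, 5228 and 9656 bp from Pdgfa and 1747 bp from Pdgfb. The Pdgfa peak with the smallest p, inside the gene (chr5:138979862-138980401), had 5.72 and 8.08 CPM in the mutant and 2.77 and 2.53 CPM in the wild type (log2 fold change 1.38 ± 0.30 SE, adjusted p = 0.0122 by edgeR). A peak at the Pdgfb gene (chr15:80024212-80025973) had 25.9 and 30.2 CPM in the mutant and 18.9 and 16.5 CPM in the wild type (log2 fold change 0.67 ± 0.18 SE, adjusted p = 0.0305 by edgeR). Both mutant libraries stood above both wild-type libraries at each. The lower peak overlapped Heyl, a Notch target gene of mural cells (chr4:123237135-123238393), with 10.7 and 11.4 CPM in the mutant and 16 and 22.8 CPM in the wild type (log2 fold change -0.81 ± 0.21 SE, adjusted p = 0.0290 by edgeR). As sums, Pdgfa (log2 fold change 0.28 ± 0.10 SE, adjusted p = 0.129 by edgeR), Pdgfb (0.22, SE 0.10, adjusted p = 0.254) and Heyl (-0.21, SE 0.09, adjusted p = 0.241) were not called. Pdgfb is made mainly by endothelial cells, whose marker peaks summed highest in wild-type replicate 1, as given above. Of the 150 peaks near those markers, 1 was higher (0.667%) and 8 were lower (5.33%) in the mutant. The part of endothelial cells in the Pdgfb values was not tested.

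Of 104 peaks near 7 regulators of the contractile program, 8 were higher (7.69%) and 2 lower (1.92%), against 3.05% and 2.45% of all peaks. Myocd, the myocardin gene that cardiomyocytes also use, carried 7 of the 8 but was not called as a sum (log2 fold change 0.24 ± 0.09 SE, adjusted p = 0.136 by edgeR), and Mrtfb, which encodes a myocardin-related coactivator, carried the other higher peak and both lower ones. The Mrtfb peak with the smallest p (chr16:13414180-13414903) had 6.14 and 5.93 CPM in the mutant and 11.5 and 18.4 CPM in the wild type (log2 fold change -1.31 ± 0.25 SE, adjusted p = 0.00533 by edgeR). The Srf locus itself, with 175 and 191 CPM in the mutant and 190 and 179 CPM in the wild type, had a log2 fold change of -0.01 (SE 0.08). Kcnj11 and Abcc8 encode the other KATP pore and regulatory subunits and lie side by side. They had 18 peaks between them with 3 higher (16.7%) and 0 lower, against 3.05% and 2.45% of all peaks. The median log2 fold change of these peaks was 0.31, and neither gene was called as a sum. Their sums followed the cardiomyocyte markers in being highest in mutant replicate 1, at 387 and 289 CPM in mutant replicates 1 and 2 for Abcc8 and 304 and 292 CPM in wild-type replicates 1 and 2.

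In the lists of other cell types, 18 of 420 cardiomyocyte peaks were higher (4.29%) and 6 lower (1.43%), and 1 of 150 endothelial peaks was higher (0.667%) and 8 lower (5.33%). Of 62 fibroblast peaks 1 was higher (1.61%) and 0 lower, and of 50 leukocyte peaks 2 were higher (4.0%) and 0 lower. These shares compare with 3.05% higher and 2.45% lower over all peaks. Leukocyte peaks summed to 869.5 and 840.9 CPM in the mutant, against 784.2 and 745.9 CPM in the wild type. The window of Spi1, which encodes a transcription factor of myeloid cells, carried this difference. It held 495 and 447 CPM in the mutant and 386 and 370 CPM in the wild type. The other 6 leukocyte loci had log2 fold changes between -0.23 and 0.06 and were not called. Both called leukocyte peaks lay in the Spi1 window, 1 of them 15480 bp outside the gene. The libraries of that window stood in the same order as the cardiomyocyte sums given above. The part of neighbouring genes or other cell types in the Spi1 window was not tested. Among all listed genes, those whose sums over the 4 libraries were nearest to the mean profile of the 9 mural genes were Actg2, Art3 and Csrp1, at root mean square distances of 0.028, 0.031 and 0.035 in centred log2 CPM. That mean profile was nearly flat, at -0.05 and 0.09 in mutant replicates 1 and 2 and -0.06 and 0.01 in wild-type replicates 1 and 2.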

How the data were processed

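ATAC-seq libraries of 2 Carm1 mutant and 2 wild-type hearts were used. The authors deposited 1 table of raw read counts per peak over a common peak set, not normalized, as the file headers and whole-number values show. The submitters' processing notes name FastQC, Bowtie2 and build mm10. The peak caller, read filters, duplicate handling, transposase shift and the convention of the peak start coordinate were not stated in the sources at hand. Such steps can alter which regions were counted, and a start may be off by 1 base.

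In R 4.3.3 the counts were scaled by TMM, filtered by filterByExpr and tested with the quasi-likelihood test of edgeR 4.0.16, with a term for genotype alone. P-values were adjusted by Benjamini-Hochberg over all 87948 peaks, with 0.05 as threshold. The filter removed 0 peaks, so all 107 mural peaks were tested. Each peak had 2 residual degrees of freedom, and the coefficient of biological variation was 0.166. CPM values use TMM-adjusted library sizes, and positive log2 fold changes mean higher in the mutant, their standard errors (SE) being derived from the F statistic. Locus sums were fitted in the same way over 17457 genes. Neighbouring genes share peaks. No pair of replicates was 1 library deposited again, since their chi-square over its degrees of freedom was 5.76 in the mutant and 4.09 in the wild type. Gene positions came from a RefSeq table of GRCm38.p6, without strand or exons. Gene starts came from the RefSeq promoter table for 6 genes, and either gene end was used for the other 3. All 9 mural genes and all other listed genes matched, Mkl1 and Mkl2 as Mrtfa and Mrtfb. The procedure was tested on simulated data. Alternatives were other scalings, filters, windows and tests (DESeq2 1.42.0, limma voom 3.58.1), a replicate block and leaving out each library. Python 3.11.15 was used for the tables.

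For each gene the start peak, the strongest peak and the peak with the smallest p were picked by rule. Some of these that were not called are left out of the text above. Every called mural peak was named, with the peak with the smallest p of the pericyte and smooth muscle lists and the neighbouring genes of called peaks. Other peaks were chosen after their values were seen. The mural genes and the lists were chosen with earlier results of these data known.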

Additional observations from a re-analysis of the deposited data

How the results depend on the processing

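The count of 5 higher and 0 lower mural peaks became 3 and 0 with DESeq2, 7 and 2 at an adjusted p under 0.1, 7 and 1 with a replicate block, and 3 and 0 over the 51 peaks that overlap a gene body. When 1 library was left out, higher calls ranged from 1 to 8 and lower calls from 0 to 1. With other scalings, no filter, limma voom, a mean CPM of at least 2, a 10 kb window or assignment to the nearest gene, 4 or 5 peaks were higher and 0 lower. A mean CPM of at least 2 removed the called Myh11 peak from the test. The 1 mural locus called higher, Cspg4, became 0 with total counts (log2 fold change 0.29, edgeR adjusted p = 0.0660). It ranged from 0 to 1 when 1 library was left out, with log2 fold changes at Cspg4 from 0.23 to 0.41. Its call held with a replicate block (0.32, adjusted p = 0.00106), DESeq2, limma voom, RLE factors, a 10 kb window and the gene body only. None of the 9 loci was called lower in any of these fits. The labels do not say what a shared replicate number means, and a correlation of 0.108 between the deviations of same-numbered libraries, over 2 pairs, does not settle it. Over all peaks the block gave 5230 higher and 4494 lower calls, against 2683 and 2156 without it. A fit without 1 library assumes that the lone library varies like the other genotype's pair. At the low counts of most mural peaks, only large differences can pass with 2 libraries a genotype.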
